A study of Mus musculus with 2 samples.

Results

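The 240 genes described here lie on mouse chromosome 14 and had a mean level of at least 5 RPKM (read density scaled to exon length and library size) over the WT and T136A libraries of E14.1 cells, a mouse embryonic stem cell line. They were taken from 977 chromosome 14 genes among the 25749 genes in the data, placed by Ensembl identifier in the GENCODE M21 annotation of the GRCm38 build. Of the 259 chromosome 14 genes at that level, 19 were left out: Tdh, Mettl3, and genes whose symbols begin with Rpl, Rps, Mrpl, Mrps, Nduf, Cox, Psm, Zfp, Eif or Eef. The WT library was made from total RNA of cells whose AHCY is wild type, and the T136A library from cells carrying T136A AHCY, a threonine-to-alanine variant. AHCY is the enzyme that splits S-adenosylhomocysteine in the methionine cycle. The labels name no treatment, passage number or clone, so whether either genotype stands for 1 clone is not known from them.

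Chromosome 14 carries genes of many unrelated functions, so no shared pathway defines the members. As background, they include regulators of the early embryo such as Bmp4, a secreted ligand that helps maintain mouse embryonic stem cells, and Otx2, a homeobox factor that acts as these cells leave the naive state. Enzymes of central metabolism, cell division genes and parts of the chromatin and RNA machinery lie among them.

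With a single library per genotype, no difference below has a replicate check. The samples are bulk RNA, in which fewer cells of a kind and less RNA per cell cannot be told apart. The chromosome was singled out with its ratios known, so its values are a description without a test. The implied totals were 17506154 reads for WT and 18396840 for T136A. All 10 embryonic stem cell markers examined were above 5 RPKM in both libraries, from 61.0 to 2182 RPKM. The 6 fibroblast feeder markers found among 10 summed to 4.79 RPKM in WT against 8.24 in T136A, with Postn at 0 RPKM in WT. Ahcy itself, on chromosome 2, stood at 52.9 RPKM in WT against 56.6 in T136A, which does not check the labels because a gene's level cannot show a changed codon.

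Most chromosome 14 members were higher in the T136A library. The members had a median level of 12.8 RPKM in WT against 19.7 in T136A, and their summed levels were 8242 and 10438 RPKM. The median of the members' plain RPKM ratios, T136A over WT, was 1.3, and the range from percentile 25 to percentile 75 ran from 1.06 to 1.60. On the log2 scale with 1 RPKM added to each value, which is used below for every log2 ratio and for every count of members at least 2-fold higher or lower, the median was 0.36. Of the 240 members, 196 (81.7%) had a log2 ratio above 0, against 47.7% of the 6671 genes of all chromosomes chosen by the same rule. At least 2-fold higher on this scale were 18 members (7.5%), against 2.44% of all genes, and at least 2-fold lower were 3 (1.25%), against 3.25%. The offset was therefore made of many modest differences and few large ones. All reads that RPKM and exon length imply for chromosome 14, members or not, made up 3.65% of the WT library and 4.38% of the T136A library.

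**Figure D1:**
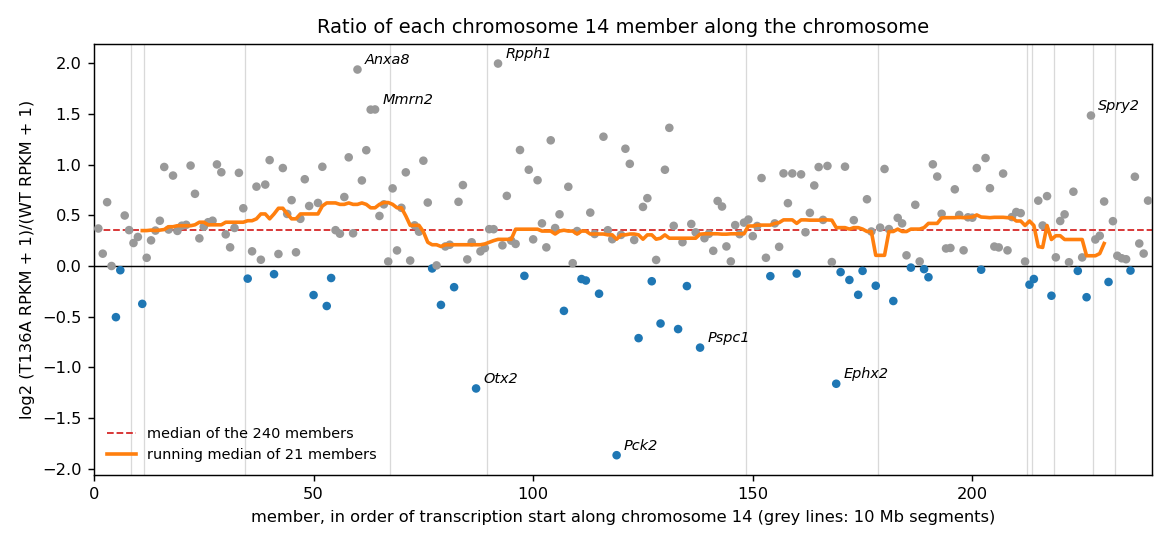
Log2 ratio of T136A over WT (1 RPKM added to each value, vertical axis) for each of the 240 members in the order of their transcription starts along chromosome 14 (horizontal axis). Blue dots are the 44 members at or below 0, the orange line is the running median over 21 members, the dashed line is the median of all members and grey lines separate 10 Mb segments. The running median stays above 0 along the whole chromosome, while single members reach from -1.87 to 2.0.

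The higher ratios were spread along the chromosome. A running median over 21 neighbouring members ranged from 0.10 to 0.63 and was above 0 at all 220 positions where it could be formed. By segments of 10 Mb, the 9 segments with at least 8 members had medians from 0.09 to 0.59. The highest median, 0.59, belonged to the 33 members between 30 and 40 Mb, of which 28 were above 0 and 6 at least 2-fold higher. Between 20 and 30 Mb all 23 members were above 0, from 0.08 to 1.00, and they formed the longest unbroken run of members above 0. It began with Saysd1 and ended with Actr8, a subunit of the INO80 chromatin remodelling complex. These end members were picked for their place with their values known. The 59 members between 50 and 60 Mb, the most densely filled segment, had a median of 0.32 and held both the lowest and the highest member of the chromosome.

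Between 80 and 90 Mb lay 1 member, Diaph3, at -0.18. The medians had no steady course along the chromosome. They were 0.20 over the 22 members between 40 and 50 Mb, 0.40 over 5 members between 90 and 100 Mb and 0.30 over 5 between 110 and 120 Mb. The 9 members between 100 and 110 Mb had a median of 0.09, and the 8 members between 120 and 130 Mb one of 0.11, although 7 members of each were above 0. Of 220 segments with at least 8 genes on chromosomes 1 to 13, 15 to 19 and X, 78 (35.5%) had a median above 0. Their medians ran from -0.41 to 0.32, and 5 of them exceeded 0.2, against 7 of the 9 on chromosome 14.

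As a whole, the 19 other chromosomes compared had medians from -0.12 (chromosome 17) to 0.05 (chromosome X). The share of genes above 0 on them ran from 40.2% to 52.2%. The chromosome 14 median exceeded the median of all 6415 genes on those chromosomes by 0.40 and the highest single chromosome by 0.31. The 14 genes of the mitochondrial genome that passed the same rule had a median of 0.36, so chromosome 14 was not alone at this level. The width of the distribution hardly differed. From percentile 16 to percentile 84 the members had a half-width of 0.46, and on single other chromosomes it ran from 0.41 to 0.54. Counted from their own median, 80.4% of members lay within 1.5-fold, and so did 79.4% of the genes on the other chromosomes from theirs. With 1 library per genotype these comparisons could not be tested.

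**Figure D2:**
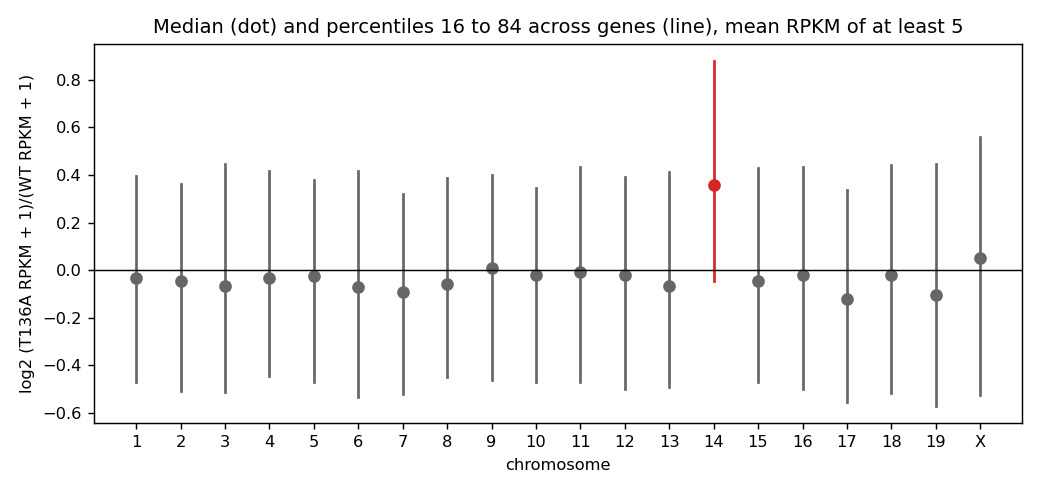
Median log2 ratio of T136A over WT (dots, 1 RPKM added) and the range from percentile 16 to percentile 84 across genes (lines) for each autosome and X, for genes with a mean of at least 5 RPKM and the same families left out. Chromosome 14 (red) has its median at 0.36, while the other medians lie between -0.12 and 0.05.

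A 95% counting interval of the ratio, which reflects read counting alone and says nothing about variation between cultures of a genotype, could be formed for 238 members. It lay wholly above 1 for 174 members, wholly below 1 for 28, and held 1 for 36. Among the 6665 genes of all chromosomes with such an interval, 37.0% lay wholly above 1 and 41.1% wholly below. The members did not share 1 ratio within counting error. The interval held the median ratio of 1.3 for 55 members, lay wholly above it for 92 and wholly below it for 91. Members nearest the common value included Ppp3cb, a catalytic subunit of the phosphatase calcineurin, at 10.2 RPKM in WT against 13.4 in T136A (1.31-fold higher, interval 1.23 to 1.40). Ap1g2, a subunit of a vesicle coat adaptor, stood at 4.85 and 6.48 RPKM and passed the minimum level through T136A alone. Dph3, which acts in diphthamide synthesis, stood at 5.14 and 6.85 RPKM.

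The 3 most abundant members were also higher in T136A. Tpt1, the translationally controlled tumour protein gene, was at 1007 RPKM in WT against 1121 in T136A, 1.11-fold higher (1.10 to 1.13). Nedd8, a ubiquitin-like modifier, was at 320 and 510 RPKM, 1.59-fold higher (1.55 to 1.64). Gm9800, a predicted gene annotated as a processed pseudogene with 336 bases of exon, was at 729 and 933 RPKM, and reads from similar copies elsewhere could be counted there. Of the 3, Tpt1 was below the median ratio of the members, Gm9800 near it and Nedd8 above it. By level, the median log2 ratio was 0.23 over the 72 members with a mean of 5 to 10 RPKM, 0.43 over the 62 members of 10 to 20 RPKM, 0.37 over the 72 of 20 to 50 RPKM and 0.30 over the 34 above that. The added 1 RPKM shrinks the first of these most, and in plain RPKM the median ratios were 1.20, 1.38, 1.31 and 1.23.

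**Figure D3:**
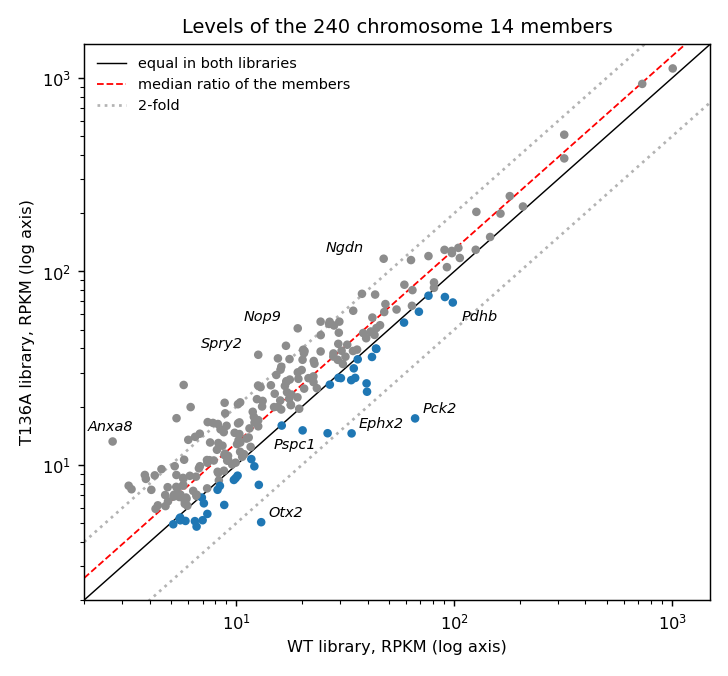
RPKM of the 240 members in the WT library (horizontal, log axis) and in the T136A library (vertical, log axis). The solid line marks equal levels, the red dashed line the members' median ratio of 1.3 and dotted lines 2-fold. Blue dots are members with a log2 ratio at or below 0. The other members lie above the solid line, scattered on both sides of the dashed line.

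At the threshold, Glt8d1 (5.53 RPKM in WT against 5.17 in T136A), Camk2g (4.26 and 5.93 RPKM) and Chd8 (4.36 and 6.18 RPKM) were just above the minimum. Just below it stood Styx (3.91 and 5.90 RPKM), Ebpl (3.99 and 5.68 RPKM) and Rnf219 (3.57 and 6.10 RPKM). Among the 170 chromosome 14 genes with a mean between 1 and 5 RPKM the median log2 ratio was 0.22, and 68.8% of them were above 0. Among the 19 genes left out, 15 were above 0 and the median was 0.34. The threonine dehydrogenase gene Tdh was at 86.0 and 122 RPKM, and the RNA methyltransferase gene Mettl3 at 9.73 and 13.5 RPKM. The 4 left-out genes below 0 were the ribosomal protein genes or pseudogenes Rpl15 (846 and 557 RPKM), Rps2-ps6, Rpl36a-ps1 and Rps3a2. Others of that kind were above 0, among them Rps24 (220 and 305 RPKM) and Rpl23a-ps3 (89.7 and 97.8 RPKM). Near-identical copies could share reads with such genes in either direction, which was not tested.

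The members that were not higher in T136A numbered 44 (18.3%), against 52.3% of all genes at or below 0. They lay scattered: 30 of them had direct neighbours that were all above 0, and no more than 2 in a row were at or below 0. The counting interval of 28 of the 44 was wholly below 1.

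Pck2, the mitochondrial enzyme that makes phosphoenolpyruvate from oxaloacetate and a known target of the stress factor ATF4, was the lowest member (ENSMUSG00000040618, GRCm38 chromosome 14, 55540266 to 55551242, plus strand). It stood at 66.1 RPKM in WT against 17.4 in T136A, 3.8-fold lower (3.63 to 3.98, from 8856 and 2448 reads). Otx2, a homeobox factor of early epiblast and head development (48657677 to 48673819, minus strand), was at 13 RPKM in WT against 5.06 in T136A, 2.57-fold lower (2.25 to 2.94). Ephx2, the soluble epoxide hydrolase (66084374 to 66124500, minus strand), was at 33.8 and 14.6 RPKM, 2.32-fold lower (2.12 to 2.55). Only these 3 members were at least 2-fold lower on the log2 scale. Exons of Pck2 overlap those of another gene over 53 bases and those of Otx2 over 322 bases, and reads there cannot be assigned without strand.

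Smaller differences in the same direction followed. Pspc1, a protein of nuclear paraspeckles, was at 26.2 RPKM in WT against 14.6 in T136A (1.8-fold lower, 1.69 to 1.92). Mdp1, a magnesium-dependent phosphatase, was at 39.8 and 23.9 RPKM, and Nfatc4, a calcium-responsive transcription factor, at 12.7 and 7.89 RPKM. Rabggta, a subunit of the enzyme that attaches geranylgeranyl lipids to Rab proteins, was at 39.6 and 26.4 RPKM. Pdhb, a subunit of pyruvate dehydrogenase, was at 98.5 and 69.1 RPKM (1.43-fold lower, 1.37 to 1.48). The cationic amino acid transporter subunit Slc7a7 was at 8.80 and 6.21 RPKM, and Ankrd28, a regulatory subunit of protein phosphatase 6, at 20.1 and 15.1 RPKM. Gch1, which starts tetrahydrobiopterin synthesis, was at 6.57 and 4.80 RPKM and passed the minimum through WT alone. The G protein subunit Gng2 was at 7.0 and 5.18 RPKM. These members were lower in T136A while the median member was 1.3-fold higher.

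At the other end, Anxa8, a calcium- and lipid-binding annexin (ENSMUSG00000021950, 34085981 to 34100571, plus strand), was at 2.70 RPKM in WT against 13.2 in T136A, 4.89-fold higher (3.89 to 6.2, from 89 and 457 reads). It passed the minimum through T136A alone. Mmrn2, an extracellular matrix protein of blood vessels (34375465 to 34404287, plus strand), was at 5.31 and 17.4 RPKM, 3.28-fold higher (2.92 to 3.70). Sncg, or gamma-synuclein (34370274 to 34374789, minus strand), was at 6.17 and 19.9 RPKM, 3.23-fold higher (2.55 to 4.12). Fam25c (34351881 to 34355433, minus strand) was at 24.4 and 55.0 RPKM. Fam25c, Sncg and Mmrn2 were consecutive members and formed the longest run of members at least 2-fold higher, 3. They lay within the segment of the highest median. Glud1, glutamate dehydrogenase, which lies between Anxa8 and Fam25c and was picked for its place after its value was seen, was at 63.3 and 115 RPKM, and the next member after Mmrn2, the BMP receptor gene Bmpr1a, at 8.63 and 12.6 RPKM.

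Of the 18 members at least 2-fold higher, 7 lay between 50 and 60 Mb, among them Dad1, Ngdn, Rec8, Ipo4 and Nop9, and Rec8 and Ipo4 were consecutive members. Spry2, a feedback inhibitor of receptor tyrosine kinase signals (105891947 to 105896819, minus strand), was at 12.6 RPKM in WT against 37.1 in T136A, 2.94-fold higher (2.65 to 3.28). Nop9, a factor of small ribosomal subunit assembly, was at 19.1 and 50.8 RPKM, and Ngdn, which also acts in assembly of that subunit, at 47.4 and 116 RPKM. Dad1, a subunit of the oligosaccharyltransferase, was at 16.9 and 41.3 RPKM, and the meiotic cohesin subunit Rec8 at 8.83 and 20.9 RPKM. Parg, which removes poly(ADP-ribose), the kinase gene Nek4 and the growth factor gene Bmp4 were between 2.24-fold and 2.33-fold higher. Bmp4, at 3.8 RPKM in WT against 8.87 in T136A, passed the minimum through T136A alone. Exons of Nop9 overlap those of another gene over 1136 bases.

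**Figure D4:**
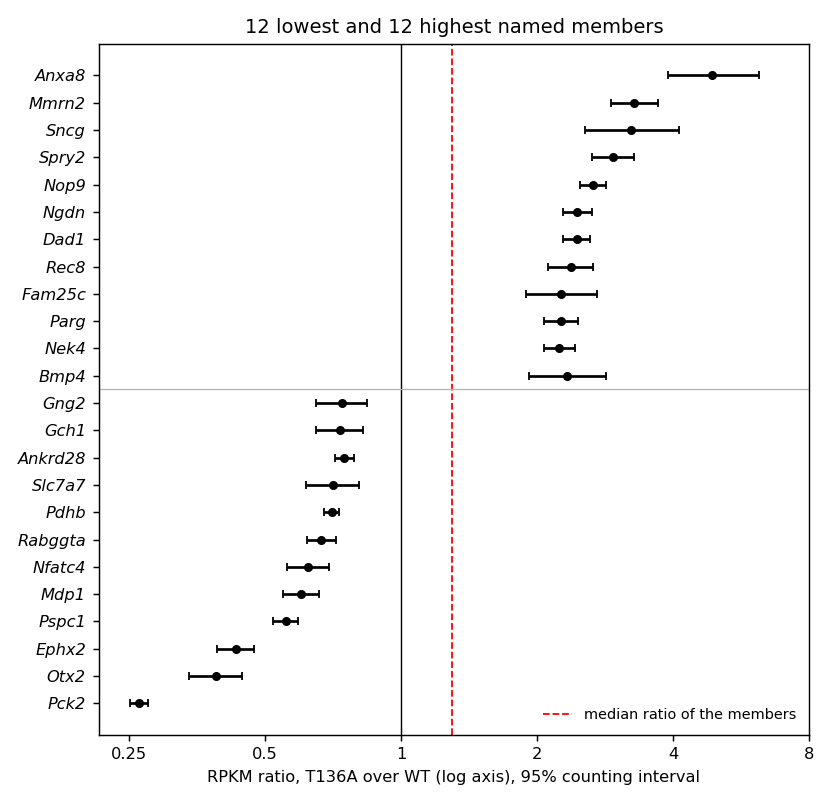
RPKM ratio of T136A over WT (horizontal, log axis) with 95% counting intervals for the 12 lowest and 12 highest members, leaving out predicted genes, Rik clones and small RNA genes. The red dashed line is the median ratio of all 240 members. The 12 lowest have intervals wholly below 1, from Pck2 to Gng2, and the 12 highest have intervals wholly above the dashed line.

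Genes at opposite ends could be close neighbours. In 1 stretch of the segment between 50 and 60 Mb, Pck2 (log2 ratio -1.87) was followed by Rec8 (1.16), Ipo4 (1.01), Mdp1 (-0.71), Rabggta (-0.57), Nop9 (1.36) and Nfatc4 (-0.62), with other members in between. Ipo4, an importin that carries proteins into the nucleus, stood at 26.8 and 55.0 RPKM, and its exons overlap those of another gene over 2583 bases. Over the whole chromosome, adjacent members differed by a median of 0.46 on the log2 scale, and adjacent genes on the other chromosomes by 0.43.

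The 250 bases upstream of the transcription start are shown for members at both ends, from RefSeq on GRCm38.p6, because Pck2 and Slc7a7 hold a match to TGATGNAA, the core of the element that ATF4 and its partners bind, and Anxa8 and Sncg hold none. The 4 were picked with these matches known and do not stand for their ends of the range. Capitals mark the match, which reads TTACATCA (the reverse strand form) in Pck2, 103 to 96 bases before the start, and TGATGCAA in Slc7a7, 243 to 236 bases before it. The windows are chr14:55540016-55540265 (plus strand) for Pck2, chr14:54417703-54417952 (minus strand) for Slc7a7, chr14:34085729-34085978 (plus strand) for Anxa8 and chr14:34374670-34374919 (minus strand) for Sncg. The RefSeq start lies 78 bases from the GENCODE start for Slc7a7 and 120 bases from it for Sncg.
Pck2: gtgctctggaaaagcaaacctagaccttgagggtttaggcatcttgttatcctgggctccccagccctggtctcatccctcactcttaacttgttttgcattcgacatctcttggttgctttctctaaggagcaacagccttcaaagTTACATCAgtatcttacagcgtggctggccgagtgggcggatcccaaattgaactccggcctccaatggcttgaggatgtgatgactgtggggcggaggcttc
Slc7a7: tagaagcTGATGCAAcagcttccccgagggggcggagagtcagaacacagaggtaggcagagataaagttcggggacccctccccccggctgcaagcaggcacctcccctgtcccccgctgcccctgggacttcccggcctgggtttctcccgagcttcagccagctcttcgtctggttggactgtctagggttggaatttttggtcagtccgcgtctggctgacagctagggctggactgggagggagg
Anxa8: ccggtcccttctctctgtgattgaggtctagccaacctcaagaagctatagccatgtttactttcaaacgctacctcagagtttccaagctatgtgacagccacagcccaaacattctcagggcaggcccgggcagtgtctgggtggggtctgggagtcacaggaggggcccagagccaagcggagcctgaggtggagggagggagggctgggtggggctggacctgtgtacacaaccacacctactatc
Sncg: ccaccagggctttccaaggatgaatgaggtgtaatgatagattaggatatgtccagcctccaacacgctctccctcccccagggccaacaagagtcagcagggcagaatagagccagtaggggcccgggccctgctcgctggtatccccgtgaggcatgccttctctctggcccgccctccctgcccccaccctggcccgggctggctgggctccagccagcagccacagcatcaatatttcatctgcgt

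Promoter entries were found for 171 members, of which 28 were at or below 0. On either strand, TGATGNAA was present upstream of 2 of these 28 (7.14%) and of 5 of the 143 members above 0 (3.50%). Among those 5 was 4930444M15Rik, a noncoding RNA gene at 3.20 RPKM in WT against 7.80 in T136A and so at least 2-fold higher. That gene passed the minimum level through T136A alone. The low members Otx2, Pspc1, Mdp1, Nfatc4, Rabggta, Pdhb, Ankrd28, Gch1 and Gng2 had entries without a match, although the RefSeq start of Otx2 lies 6175 bases from its GENCODE start. It was present in 1.88% of the same windows of all genes chosen by the rule and in 3.45% of all 32851 promoter entries. The E-box CACGTG, which reads the same on both strands and is bound by MYC and related factors, was present upstream of 1 of the 28 (3.57%) and of 18 of the 143 (12.6%). It was present in 9.66% of the windows of all genes chosen by the rule and in 6.02% of all entries. With so few matches these shares are a description, and a match is not a bound site. The ratio of observed to expected CpG was taken over the whole promoter entry, which is longer than the upstream bases printed. It was low in all 4 printed genes, at 0.397 for Pck2, 0.395 for Slc7a7, 0.205 for Anxa8 and 0.323 for Sncg. The median over the members was 0.832. The 171 members were cut into 3 classes of 57 by this ratio. The low class held 9 members at least 2-fold higher and 2 at least 2-fold lower, against 1 and 0 in the middle class and 5 and 0 in the high class. The half-width from percentile 16 to percentile 84 was 0.56 in the low class, 0.31 in the middle and 0.41 in the high, while the medians were 0.32, 0.33 and 0.44. Whether genes of other chromosomes differ in the same way by this ratio was not tested.

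By strand, exon overlap and gene length, the medians of the members differed little. The median log2 ratio was 0.38 for the 110 members on the plus strand and 0.35 for the 130 on the minus strand. It was 0.36 for the 90 members whose exons overlap another gene and 0.35 for the 150 without overlap. By gene length, the medians of 80 short, 80 middle and 80 long members were 0.35, 0.36 and 0.37. Of the 18 members at least 2-fold higher, 12 were short, 5 middle and 1 long, while each of these classes held 1 member at least 2-fold lower. Whether genes of other chromosomes differ by gene length in the same way was not tested. Of the 240 members, 229 were protein coding.

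Members were also grouped by function, and each list is read against all members, with their median of 0.36. Of all members 81.7% were above 0, 7.5% at least 2-fold higher and 1.25% at least 2-fold lower. The counts in each list are a description. Among early embryo and pluripotency regulators, 6 of the 20 listed genes were members, with a median of 0.55. Spry2 and Bmp4 (3.8 RPKM in WT against 8.87 in T136A) were at least 2-fold higher, and Otx2 at least 2-fold lower. The epithelial and pluripotency factor Klf5 was at 90.6 and 73.8 RPKM and has no counting interval. Fgf17 was at 15 and 23.3 RPKM.

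In the cell division list, 13 of 17 members were above 0, with a median of 0.36. The highest were Rec8, Esco2, which acetylates cohesin (12.6 and 25.7 RPKM), and the mitotic kinase gene Pbk (43.3 and 76.0 RPKM). The lowest were the spindle protein Dlgap5 (41.9 and 36.1 RPKM), the formin Diaph3 (10.1 and 8.80 RPKM) and Ajuba (43.8 and 39.9 RPKM). The most abundant, Sugt1, a chaperone partner needed at kinetochores, was at 146 and 151 RPKM.

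Of the 19 members in the chromatin and transcription list, 18 were above 0, with a median of 0.45. Med4, a Mediator subunit, was at 37.7 and 76.7 RPKM, Ccar2 at 16.1 and 32.2 RPKM, and the Integrator subunit Ints9 at 8.22 and 16.3 RPKM. Tsc22d1 (36.1 and 35.1 RPKM), the arginine methyltransferase gene Prmt5 (80.7 and 82.3 RPKM) and Tox4 (17.8 and 20.4 RPKM) were the lowest, and the interval of the Prmt5 ratio, 0.98 to 1.06, held 1.

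RNA processing and DNA repair had 25 members, 21 of them above 0 and 4 at least 2-fold higher, with a median of 0.48. The highest was Rpph1, the RNA subunit of RNase P, at 5.73 and 25.9 RPKM (4.52-fold higher, 3.07 to 6.84, from 32 and 152 reads). Its exon overlaps another gene over 233 bases, and it is a short transcript without a poly(A) tail. The lowest of the 4 members below 0 were Pspc1, the telomere protein gene Tinf2 (68.8 and 61.9 RPKM) and the decapping factor gene Dcp1a (8.20 and 7.44 RPKM). Hnrnpc, an abundant RNA-binding protein, was at 320 and 384 RPKM.

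Of 31 metabolic and mitochondrial members, 26 were above 0, with a median of 0.32. Ppif, or cyclophilin D (6.47 and 14 RPKM), adenosine kinase, Adk (6.79 and 14.5 RPKM), and the mitophagy receptor gene Bnip3l (26.6 and 53.6 RPKM) had the highest ratios, at 2.16-fold, 2.13-fold and 2.01-fold in plain RPKM. With 1 RPKM added, Ppif was at least 2-fold higher, and Adk and Bnip3l were just under that line. The import channel subunit Timm23, the most abundant, was at 126 and 203 RPKM. Pck2, Mdp1 and Pdhb formed the lower end.

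The secretory, transport and protein turnover list had 34 members, 29 of them above 0, and a median of 0.33. Dad1, Ipo4 and Slmap (4.53 and 9.51 RPKM) were the highest, and Rabggta, Slc7a7 and Itm2b (58.8 and 54.4 RPKM) the lowest. Cytoskeletal, adhesion and signalling genes had the lowest list median, 0.27, with 15 of 22 members above 0 and 0 at least 2-fold higher or lower on the log2 scale with 1 RPKM added. Clu, or clusterin (7.81 and 16.5 RPKM), the kinase anchor Akap11 (4.22 and 8.83 RPKM) and Tspan14 (20.1 and 35 RPKM) were the highest. Slmap and Akap11 passed the minimum level through T136A alone. The calcineurin subunit gene Ppp3cc (7.36 and 5.58 RPKM), Kctd9 (6.45 and 5.12 RPKM) and Efs (12.1 and 9.83 RPKM) were the lowest. Fermt2, which activates integrins, was at 64.0 and 66.4 RPKM.

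The 6 members among genes of ATF4 and endoplasmic reticulum stress differed from each other. Pck2 was the lowest and the death receptor gene Tnfrsf10b was at 9.92 and 8.55 RPKM. The endoplasmic reticulum proteins Selenok (15.9 and 31.1 RPKM) and Serp2 (12.4 and 21.9 RPKM), the co-chaperone gene Dnajc3 (7.52 and 10.6 RPKM) and Bnip3l were above 0. The list median was 0.61.

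**Figure D5:**
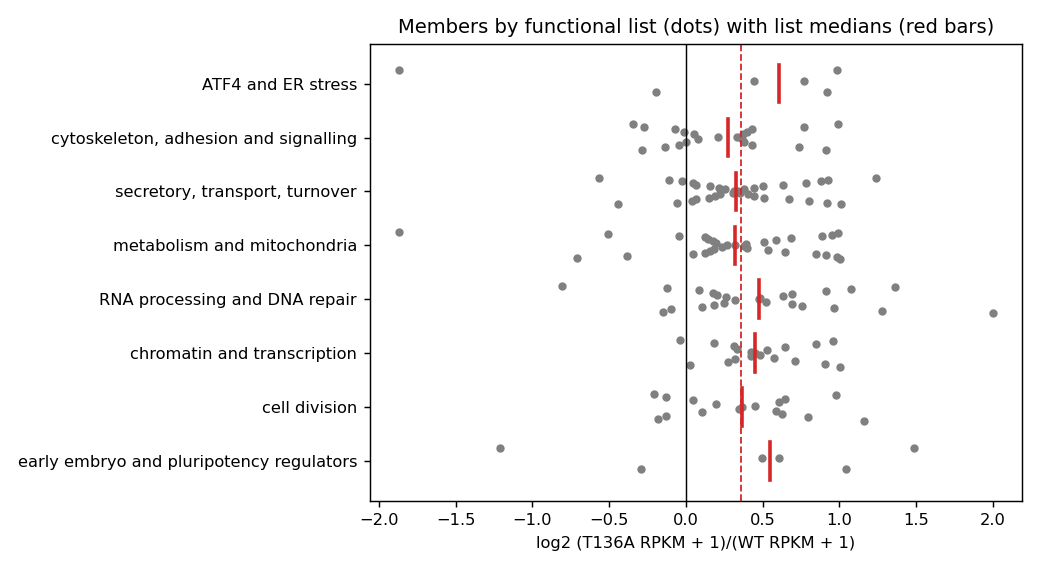
Log2 ratio of T136A over WT (1 RPKM added, horizontal axis) for the members of 8 functional lists (dots) with the list median (red bars). The black line marks 0 and the dashed line the median of all 240 members. List medians run from 0.27 to 0.61, and the single dots spread far wider than the medians differ.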

How the data were processed

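The authors deposited 1 value per Ensembl gene and library, read here as RPKM, and the unit was settled from the values. Each value times the union exon length in GENCODE M21 and 1 constant per library gave whole reads, within 0.01, for 89.9% (WT) and 90.0% (T136A) of positive values. Per the submitters' processing notes, CASAVA 1.8 and the mm9 build were used, with no role given. For the aligner, the counter and strand, the tools were not given in the sources used here. At a mean of 5 RPKM or more, reads were whole in both libraries for 99.3% of genes on chromosomes 1 to 13 and X but for 38.3% on chromosomes 14 to 19. The gene models behind the values may differ from M21 there. An exon length cancels in a ratio, but whether other exons would change the ratios was not tested. Above 0 were 85.0% of members with the M21 length and 78.8% of those with an inferred length. For 120 members the M21 length was used, for 118 the nearest integer length, within 0.3 to 3 times the M21 length, that made both libraries whole within 0.001, and 2 had none. GENCODE M21 placed 25696 of the 25749 genes.

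Ratios are log2 of RPKM plus 1, T136A over WT. Folds are plain RPKM ratios, with exact conditional binomial (Clopper-Pearson) 95% intervals. Reads are not independent molecules. No test was possible with 1 library per group. The steps were tested on simulated data, where a smaller share of chromosome 14 genes had a changed exon length, always by the same factor. That simulation cannot show how well reads were recovered for the members with an inferred length. Python 3.11.15, pandas 2.3.3, NumPy 2.4.6, SciPy 1.17.1 and matplotlib 3.10.9 were used. Members, functional lists and motifs were chosen with earlier results of these data known. The named genes are the 12 highest and 12 lowest members, the 3 nearest the median and the 3 on either side of the minimum (in these, predicted genes, Rik clones and small RNA genes were passed over), the 3 most abundant, and the 3 at each end and the most abundant of every list. Further genes were named after their values were seen. Alternatives covered the added constant, the minimum level, scaling, segment length, gene overlap and the definition of members not higher in T136A. Trophectoderm and primitive endoderm markers were also examined: 3 of 7 and 7 of 10 reached 1 RPKM in a library, with sums of 69.7 and 109 RPKM in WT and 42.1 and 136 RPKM in T136A. The lower trophectoderm sum came from Tfap2c (57.7 RPKM in WT, 26.5 in T136A), and the other 6 trophectoderm markers were higher in T136A. All 10 primitive endoderm markers were higher in T136A, and Sparc (91.7 RPKM in WT, 106 in T136A) made up most of their sums. Of all genes chosen by the rule, 47.7% were above 0. Markers of both kinds near 0 RPKM included Foxa2 (0.07 RPKM in WT, 0.11 in T136A) and Cdx2 (0.03 and 0.08 RPKM). Of the stem cell markers, Nanog, Pou5f1, Sox2, Esrrb, Fgf4, Klf4 and Dppa5a were lower in T136A. Utf1, Zfp42 and Tdgf1 were higher, and the stem cell sums were 4285 RPKM in WT and 4219 in T136A.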

Additional observations from a re-analysis of the deposited data

How the results depend on the processing

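No paired analysis was possible because each genotype had 1 library. The direction of the members' median was kept in all alternatives run on it. Of 80 values under alternatives, 60 stayed within their limit (1.5 times for counts, the 95% order-statistic interval across genes for medians, an exact binomial interval for shares). With 5 RPKM added the median was 0.28, and with no minimum level, over 825 genes, 0.11 with 68.4% above 0. The members at least 2-fold higher numbered 30 with 0.1 added, 9 with 5 added and 8 with a minimum of 20 RPKM (106 genes), and 72 were at least 1.5-fold higher. Lower were 6 at the 1.5-fold line, 1 with 5 added, 7 with a minimum of 1 RPKM (410 genes) and 1 without exon overlap. With that minimum of 1 RPKM the lowest 10 Mb segment median was -0.051, so 10 of 11 filled segments were above 0. The gap to the highest other chromosome was 0.23 with a minimum of 20 RPKM and 0.24 with 5 added, and the gap to the genes of the other chromosomes 0.31 with 5 added. The members not higher in T136A were 28 by counting interval. They were 9 by the interval among the 120 members with M21 lengths alone, an alternative chosen after seeing the data. They were 5 when at least 2-fold below the members' median, 20 with a minimum of 20 RPKM and 27 of the 150 without exon overlap. The minimum, overlap and M21 length settings leave fewer or more genes. A larger added constant shrinks every log2 ratio and a smaller one enlarges it. Another fold line or another definition counts other members. How much each of these contributed to a moved value was not tested. A minimum of 5 RPKM in WT alone left 182 of 227 genes above 0, and in T136A alone 209 of 251. The members at least 2-fold higher or lower were not counted again with these minimums. Scaling moved the median of all genes by at most 0.04. Of 70 named members, Tsc22d1 alone changed sign, and 16 crossed the 2-fold line. With 5 RPKM added, Otx2 (-0.84), Ephx2 (-0.99), Bmp4 (0.66), Ppif (0.73), Nek4, Parg, Rec8, Ipo4 and Med4 fell short of it. With 0.1 added, Adk, Akap11, Bnip3l, Clu, Esco2 and Slmap reached it. Under a scaling, Adk, Bnip3l, Ccar2, Clu, Esco2 and Med4 crossed it.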
